A study of Mus musculus with 26 samples.

Results

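The 10 genes described here mark or build the inner neurons of the retina, and they were followed in mouse cells sorted as photoreceptor precursors. They were taken by name from an expression table of 25146 usable genes: Onecut1, Onecut2 and Lhx1 of horizontal cells, Ptf1a, Tfap2b, Gad1 and Gad2 of amacrine cells, Pou4f2 of ganglion cells, and Prox1 and Pax6, which several of these cells share. All 10 had a value in each of the 26 libraries of the study. The table gives RPM, the reads of a gene scaled to the total of its library, from 3' RNA-seq, in which reads come from the 3' end of transcripts, made from 1 ng of RNA per library. Values are therefore compared within a gene and not between genes.

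Horizontal and amacrine cells are the interneurons of the retina, and ganglion cells send its output to the brain. All of them arise, like the photoreceptors, from retinal progenitors, in which Pax6 is active before the fates divide. Foxn4 and Ptf1a steer progenitors towards horizontal and amacrine fates, the ONECUT factors act in the horizontal branch, and in mouse most cells of the ganglion and horizontal cell classes are born before birth. BLIMP1, encoded by Prdm1, is a repressor that newborn photoreceptors turn on, and CD73, encoded by Nt5e, is a surface enzyme of maturing rods.

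There were 5 retinal groups of 2 libraries each, all from C57BL/6 mice homozygous for EGFP-BLIMP1, an allele with EGFP knocked in so that it sits N-terminal of BLIMP1. P0_PRP_GFP+ held cells of postnatal day 0 sorted for the reporter, and P4_PRP_GFP+CD73- held reporter-positive cells of day 4 without surface CD73. P4_PRP_CD73+, P6_PRP_CD73+ and P10_PRP_CD73+ held cells sorted for surface CD73 at days 4, 6 and 10. No reporter-negative retinal group and no mice without the reporter allele were among them, and the CD73+ gate made no use of the reporter. The step from P0 to the CD73- sort of P4 changes age and also the gate, which adds a CD73 stain and leaves CD73+ cells out. The step between the P4 sorts changes the gate alone, and the steps from P4 to P10 change age within the CD73+ gate. The labels do not tie replicates to separate animals, and each p-value covers only the spread between the libraries, which may be technical.

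The libraries held 2.58 to 5.60 M reads, so that 1 read was worth 0.179 to 0.387 RPM and 3 reads 0.536 to 1.16 RPM. Nt5e stood at 323 and 225 RPM in P4_PRP_CD73+, against 145 and 89.2 RPM in P4_PRP_GFP+CD73-. The CD73- sort thus held Nt5e RNA, at levels above the 8.37 and 18.2 RPM of P0. Prdm1 stood at 486 and 481 RPM at P0, at 288 and 275 RPM in P4_PRP_CD73+, at 502 and 495 RPM in P4_PRP_GFP+CD73-, at 146 and 164 RPM at P6 and at 86.0 and 80.4 RPM at P10. All 20 genes of a photoreceptor marker list, Nt5e and Prdm1 among them, were above 0 in each of the 10 libraries. Their summed level was 3387 to 3700.0 RPM at P0 and 44814 to 51350 RPM at P10. Markers of the inner neurons were mixed in level. Beside the 10 genes described, the retinal libraries had 3 to 7 of 33 amacrine, 1 to 2 of 12 horizontal and 4 to 6 of 30 ganglion cell genes at 0. Rbpms, an RNA-binding protein of ganglion cells, stood at 2.50 to 11.2 RPM over the 10 libraries. Its paralog Rbpms2, of the same list, stood at 3.75 to 40.4 RPM and was highest at P10 (39.2 and 40.4 RPM). Of defining markers singled out for their low values, Gja10 (a horizontal cell gap junction) and Opn4 (melanopsin, of ganglion cells) were at 0 in all 10 libraries. Chat (of starburst amacrine cells) was at 0 in 9, Calb1 (calbindin, of horizontal cells) in 8 and Thy1 (of ganglion cells) in 7. These are sorted populations and not single cells, so fewer cells of a type and less RNA per cell cannot be told apart anywhere below.

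The RefSeq annotation of GRCm38.p6 places Onecut1 (Entrez ID 15379) at chromosome 9, 74861921 to 74889648 and Lhx1 (16869) at chromosome 11, 84517975 to 84525534. Ptf1a (19213) lies at chromosome 2, 19445663 to 19447501, Gad2 (14417) at 22621015 to 22693877, Gad1 (14415) at 70561303 to 70602014 and Pax6 (18508) at 105668896 to 105698410 of the same chromosome. Tfap2b (21419) lies at chromosome 1, 19208908 to 19238845, Prox1 (19130) at 190118035 to 190170827 of the same one, and Pou4f2 (18997) at chromosome 8, 78433009 to 78436647. Onecut2 has Entrez ID 225631. Antisense transcripts overlap Ptf1a, Gad1, Prox1 and Pax6, and a non-coding transcript of the same strand spans Onecut1. MicroRNA genes of the same strand, Mir3967 and Gm23636, lie within Gad2. The sources used here do not give how reads of such pairs were assigned, so their share in these values cannot be told apart.

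RefSeq promoter windows of GRCm38.p6 ran from 250 bases before to 50 bases after a start site. Onecut2 was left out, and 11 windows of the other 9 genes were taken. They were searched on both strands for GNGAAAG (a core known for BLIMP1), TAATCC (known for CRX and OTX2) and ATTGAT (a core known for ONECUT factors). GNGAAAG was found in 3 of the 11 windows and in 22.6% of all 32851 windows. TAATCC was found in 1 window, that of Gad1, and in 7.06% of all windows, and ATTGAT in 1, that of Tfap2b, and in 7.54% of all. No matches of different motifs overlapped. The windows with GNGAAAG are shown because the P0 and P4 CD73- sorts were gated on the EGFP-BLIMP1 reporter, with matches in capitals, each read 5′ to 3′ on the strand of its gene. They are Onecut1 at chr9:74861671-74861970 (plus strand, match at bases 55 to 61), Tfap2b at chr1:19211804-19212103 (plus strand, GNGAAAG on the opposite strand at bases 75 to 81 and ATTGAT on the opposite strand at bases 248 to 253) and the downstream one of the Prox1 windows at chr1:190169466-190169765 (minus strand, GNGAAAG on the opposite strand at bases 113 to 119 and 142 to 148). A match is a description of the letters and not a binding site.
Onecut1: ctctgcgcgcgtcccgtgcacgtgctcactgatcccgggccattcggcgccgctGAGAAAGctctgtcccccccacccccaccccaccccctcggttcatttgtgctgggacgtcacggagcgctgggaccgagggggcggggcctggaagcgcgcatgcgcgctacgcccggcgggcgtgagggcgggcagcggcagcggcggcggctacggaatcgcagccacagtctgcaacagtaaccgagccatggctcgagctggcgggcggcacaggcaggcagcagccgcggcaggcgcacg
Tfap2b: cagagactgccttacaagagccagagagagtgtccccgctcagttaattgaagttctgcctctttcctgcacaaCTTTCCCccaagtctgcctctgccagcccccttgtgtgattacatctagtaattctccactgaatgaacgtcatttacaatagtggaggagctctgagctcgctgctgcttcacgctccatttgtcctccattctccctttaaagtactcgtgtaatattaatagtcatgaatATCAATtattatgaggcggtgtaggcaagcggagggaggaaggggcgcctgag
Prox1: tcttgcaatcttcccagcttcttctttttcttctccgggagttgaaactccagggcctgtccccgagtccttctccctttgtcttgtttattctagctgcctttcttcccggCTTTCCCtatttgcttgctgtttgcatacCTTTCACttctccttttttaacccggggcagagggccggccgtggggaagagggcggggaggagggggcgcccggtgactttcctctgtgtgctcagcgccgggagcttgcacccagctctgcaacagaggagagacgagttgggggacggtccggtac

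Of the horizontal cell genes, Onecut1, a cut-homeodomain factor that horizontal cell development in mouse depends on, was a gene of the P0 cells. It stood at 53.6 and 43.9 RPM in P0_PRP_GFP+, at 4.01 and 3.17 RPM in P4_PRP_CD73+, at 6.52 and 7.31 RPM in P4_PRP_GFP+CD73-, at 1.10 and 4.64 RPM at P6, and at 0.260 and 0 RPM at P10. Both P0 libraries lay above the other 8, and the P10 values rest on 1 read and on none. In descending order of their means the groups were P0 (48.8 ± 6.88 RPM, SD, n = 2), P4 CD73- (6.92 ± 0.559), P4 CD73+ (3.59 ± 0.589), P6 (2.87 ± 2.51) and P10 (0.130 ± 0.184), and only P4 CD73+ and P6 overlapped with their neighbour.

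Onecut2, its paralog with overlapping expression in early retinal neurons, overlapped with its P0 level in 1 of the P4 sorts. It stood at 68.8 and 78.4 RPM in P0_PRP_GFP+, at 19.8 and 18.3 RPM in P4_PRP_CD73+, at 100.1 and 58.7 RPM in P4_PRP_GFP+CD73-, at 12.4 and 21.7 RPM at P6, and at 3.90 and 4.37 RPM at P10. The P4 CD73- and P0 libraries overlapped and lay above the P4 CD73+ and P6 libraries, which overlapped in turn, and the P10 libraries were lowest. The P4 sorts, of the same age, thus differed in Onecut2 without overlap, with means of 19.0 ± 1.09 RPM in the CD73+ sort and 79.4 ± 29.3 RPM in the CD73- sort. Lhx1, a LIM-homeodomain factor of postmitotic horizontal cells, was near 0 in every retinal library. Its highest value was 1.41 RPM in P4_PRP_CD73+ replicate 1, which is 6 reads, and the other 9 libraries held at most 2 reads each.

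Of the amacrine cell genes, Ptf1a, a bHLH factor that commits progenitors to amacrine and horizontal fates, was again highest at P0. It stood at 36.4 and 36.8 RPM in P0_PRP_GFP+, at 4.71 and 8.99 RPM in P4_PRP_CD73+, at 3.39 and 11.1 RPM in P4_PRP_GFP+CD73-, at 1.83 and 0.387 RPM at P6, and at 0.779 and 1.68 RPM at P10. The P0 libraries lay above all others, the P4 sorts overlapped with each other, and so did P6 and P10, whose values rest on 1 to 5 reads.

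Tfap2b, an AP-2 factor of amacrine and horizontal cells, had another course. It stood at 11.0 and 16.0 RPM in P0_PRP_GFP+, at 10.2 and 22.0 RPM in P4_PRP_CD73+, at 13.1 and 27.2 RPM in P4_PRP_GFP+CD73-, at 13.8 and 7.86 RPM at P6, and at 0.606 and 1.68 RPM at P10. The 4 groups up to P6 overlapped in sequence, from 20.2 ± 10.0 RPM in the P4 CD73- sort to 10.8 ± 4.21 RPM at P6, and the P10 libraries lay below all of them.

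Gad2 and Gad1 encode the enzymes that make the transmitter GABA in most amacrine and in horizontal cells. Gad2 stood at 34.6 and 39.7 RPM in P0_PRP_GFP+, at 12.8 and 21.2 RPM in P4_PRP_CD73+, at 19.3 and 30.5 RPM in P4_PRP_GFP+CD73-, at 13.9 and 19.7 RPM at P6, and at 2.73 and 1.68 RPM at P10. The P0 libraries were highest, the P4 sorts overlapped with each other, the P4 CD73+ sort overlapped with P6, and P10 lay below them. Gad1 did not share this course: its retinal libraries ran from 0.233 to 3.56 RPM, every group overlapped with its neighbour in the order, and at P10 it still stood at 1.82 and 1.68 RPM. Slc32a1, the vesicular transporter that loads GABA for release, was low as well, with its highest retinal values of 5.86 and 5.80 RPM at P6.

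Pou4f2 (BRN3B), the factor of ganglion cell differentiation, was at 0 in 8 of the 10 retinal libraries. P0_PRP_GFP+ replicate 1 held 2 reads of it (0.453 RPM) and P4_PRP_CD73+ replicate 2 held 1 read (0.265 RPM). Levels below the 0.536 to 1.16 RPM that 3 reads make up are not detectable at this depth.

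Prox1, a homeodomain factor of progenitors leaving the cell cycle, of horizontal cells and of AII amacrine and bipolar cells, ran against the others. It stood at 25.3 and 34.0 RPM in P0_PRP_GFP+, at 12.7 and 25.4 RPM in P4_PRP_CD73+, at 25.2 and 21.0 RPM in P4_PRP_GFP+CD73-, at 47.6 and 43.0 RPM at P6, and at 47.3 and 51.1 RPM at P10. The P6 and P10 libraries overlapped with each other and lay above the other 6. Means were 49.2 ± 2.74 RPM at P10, 45.3 ± 3.27 RPM at P6, 29.7 ± 6.12 RPM at P0, 23.1 ± 2.96 RPM in the P4 CD73- sort and 19.1 ± 8.96 RPM in the P4 CD73+ sort.

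Pax6, the paired-homeodomain factor of progenitors that amacrine, horizontal and ganglion cells keep and rods switch off, stood apart at both ends of the series. It stood at 224 and 262 RPM in P0_PRP_GFP+, at 104 and 186 RPM in P4_PRP_CD73+, at 75.0 and 136 RPM in P4_PRP_GFP+CD73-, at 91.9 and 109 RPM at P6, and at 24.9 and 22.2 RPM at P10. The P0 libraries were highest and the P10 libraries lowest, while the P4 and P6 groups overlapped.

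**Figure D1:**
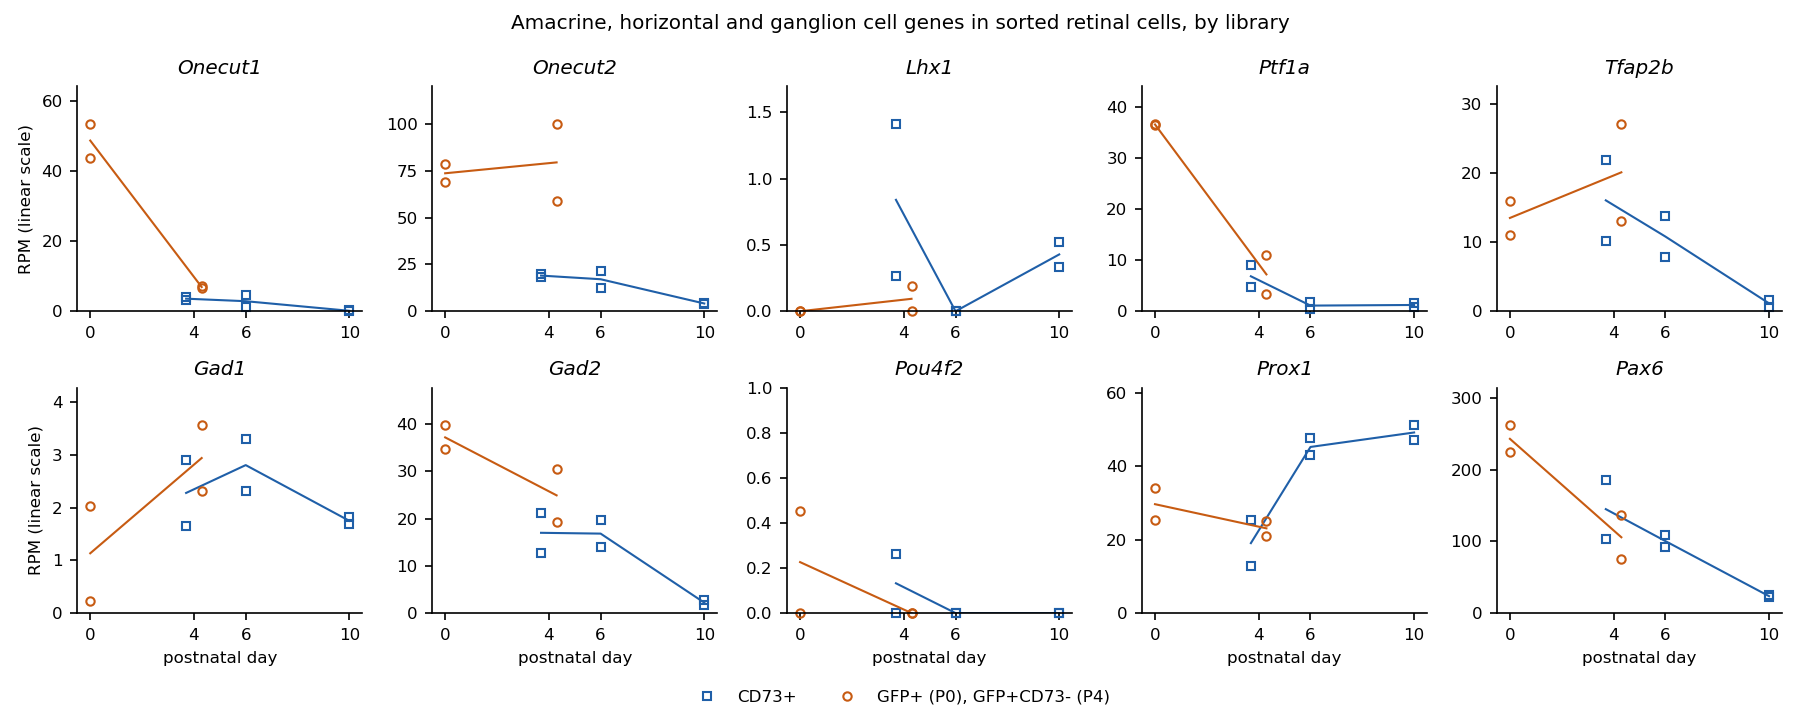
RPM (linear axes, each with its own range) of the 10 genes against postnatal day, 1 point per library, with lines through the means of 2 libraries; squares are CD73+ sorts, circles the reporter-positive sorts of P0 and, without CD73, of P4, and the P4 sorts are set slightly apart. Onecut1 and Ptf1a are highest at P0, Onecut2 separates the P4 sorts, Tfap2b and Gad2 are lowest at P10, Prox1 is highest at P6 and P10, and Lhx1 and Pou4f2 stay within 1.41 and 0.453 RPM.

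The changes were tested with limma on log2(RPM + 1) over the 10 retinal libraries, among the 11704 genes that reached 5 RPM in 2 or more of them. A change was called, and is written as rose or fell, at an adjusted p under 0.05 with a log2 fold change of at least 1 in size. Lhx1, Gad1 and Pou4f2 did not reach the filter, so 7 of the 10 genes were tested, and a gene high in 1 group alone could pass it. Fold changes on this scale understate the change of low genes. The genes were chosen with earlier results known, and their counts are given beside those of all genes as a description.

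From the P0 cells to the reporter-positive CD73- cells of P4, Onecut1, Ptf1a and Pax6 fell. Onecut1 was lower in P4_PRP_GFP+CD73- by a log2 fold change of -2.65 ± 0.45 (standard error, adjusted p = 0.000638), Ptf1a by -2.37 ± 0.51 (adjusted p = 0.00353) and Pax6 by -1.25 ± 0.26 (adjusted p = 0.00292). The others were not called: Gad2 changed by -0.59 ± 0.34, Prox1 by -0.34 ± 0.28, Onecut2 by 0.06 ± 0.29 and Tfap2b by 0.48 ± 0.45, with adjusted p-values of 0.236 to 0.911. Thus 3 of the 7 fell and 0 rose, where 11.0% of all genes tested were called in either direction, 5.24% higher and 5.77% lower. The median over the 7 was -0.59, against 0.06 over all genes. Without P4_PRP_GFP+CD73- replicate 1, 1 of the 7 was called, since Ptf1a (-1.64, adjusted p = 0.0766) and Pax6 (-0.82, adjusted p = 0.0702) missed the threshold.

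Of 15 other progenitor genes tested in this step, 9 fell and 0 rose (median -1.57), among them Top2a (-2.96 ± 0.36) and Fgf15 (-2.77 ± 0.57). The summed level of these 15 was 1436 and 1918 RPM in the P4 CD73- sort, against 4484 and 4496 RPM at P0. Of 20 photoreceptor genes, 16 rose and 0 fell (median 2.30), with Nr2e3, a rod factor, at 4.15 ± 0.16. Their part in the falls of Onecut1, Ptf1a and Pax6 was not tested.

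The further genes of the inner neurons did not move as 1 block in this step. Of 22 other amacrine genes 6 rose and 3 fell (median 0.27): Foxn4, which acts upstream of Ptf1a, fell by 3.21 ± 0.35 and stood at 25.9 and 49.7 RPM in the P4 CD73- sort, against 322 and 358 RPM at P0. Meis2 rose by 2.15 ± 0.16 and Neurod2 by 1.99 ± 0.45, both factors of amacrine subtypes. Of 9 other horizontal cell genes 3 rose (Isl1, Sept4 and Ndrg1) and 1, again Foxn4, fell. Ndrg1 carried most of the summed level of that list and stood at 1629.5 and 1274 RPM in the P4 CD73- sort. Of 18 other ganglion cell genes 1 rose and 6 fell (median -0.48), led by Atoh7, the bHLH factor that gives progenitors the competence for ganglion cells, at -4.05 ± 0.34. It stood at 12.5 and 21.6 RPM in the P4 CD73- sort, against 310 and 269 RPM at P0. Of 10 other GABA genes 1, the receptor subunit Gabra2, rose and 1, the GABA-degrading enzyme Abat, fell. Bipolar cell genes counted 4 of 18 higher, Muller glia genes 4 of 13 higher and 3 lower, and endothelial, pericyte and microglial genes 1 of 6 lower. Of the lens and pigment epithelium list 2 genes were tested, Dct and Cryab, and both rose.

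Between the sorts of P4, Onecut2 alone of the 7 was called. It was lower in P4_PRP_CD73+ by a log2 fold change of -1.96 ± 0.29 (adjusted p = 0.000351), and it was called under each of the 19 alternative settings, with values of -2.34 to -1.58. The other 6 ranged from -0.79 ± 0.45 for Onecut1 to 0.45 ± 0.26 for Pax6, with adjusted p-values of 0.329 to 0.971. This is 1 of 7 lower and 0 higher, where 5.86% of all genes were called, 3.43% higher and 2.43% lower, and the median was -0.33 over the 7 and -0.01 over all genes. Onecut2 and Onecut1, which share a DNA-binding domain, were not tested against each other.

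Of the other ganglion cell genes 6 of 18 fell and 2 rose in the CD73+ sort (median -0.53). Those that fell included Atoh7 (-2.55 ± 0.34) and the axon guidance receptors Robo2 (-2.22 ± 0.20) and Dcc (-1.76 ± 0.18). Those that rose were Nefh (1.58 ± 0.34) and Rbpms2 (1.08 ± 0.30). Robo2 stood at 35.6 and 56.1 RPM in the CD73+ sort, against 210.3 and 213 RPM in the CD73- sort. Of the other amacrine genes 4 of 22 fell and 0 rose, led by Foxn4 (-1.67 ± 0.35) and Bhlhe22 (-1.40 ± 0.27), and Foxn4 was also the 1 of 9 horizontal cell genes that fell. Of the GABA genes 1 of 10 fell. Among bipolar cell genes 3 of 18 fell (Lhx4 at -2.16 ± 0.21, Lhx3 and Neurod4) and 1, Prkca, rose (1.18 ± 0.17). Their summed level was 2202 and 2328 RPM in the CD73+ sort, against 5246 and 5129 RPM in the CD73- sort. Of that sum Otx2, also in the photoreceptor list, held 1308 and 1330 RPM in the CD73+ sort, against 2468 and 2439 RPM. Neurod4 held 466 and 633 RPM in the CD73+ sort, against 2071 and 2181 RPM in the CD73- sort. Microglial genes moved the same way: 4 of 6 endothelial, pericyte and microglial genes fell (median -2.85), and Tyrobp stood at 0.707 and 0.529 RPM in the CD73+ sort, against 13.2 and 30.0 RPM in the CD73- sort. Photoreceptor genes counted 13 of 20 higher and 0 lower, with Nt5e, the gene of the gate itself, among the 13. Of 15 progenitor genes 0 were called in either direction. Of 13 Muller glia genes 1 fell, and Dct of the pigment epithelium fell as well. The part of these cell types in the Onecut2 difference was not tested.

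Within the CD73+ gate from P4 to P6, Prox1 rose and Ptf1a fell. Prox1 was higher at P6 by 1.28 ± 0.28 (adjusted p = 0.0151) and Ptf1a lower by -1.93 ± 0.51 (adjusted p = 0.0436). The other 5 lay between -0.49 ± 0.45 for Tfap2b and 0.01 ± 0.34 for Gad2, with adjusted p-values of 0.383 to 0.994. This is 2 of 7, where 2.70% of all genes tested were called, 1.56% higher and 1.14% lower, and the median was -0.41 over the 7 and 0 over all genes. Both calls were lost under some settings. Prox1 lost its call under 5 of 19, with 0.81 (adjusted p = 0.140) without P4_PRP_CD73+ replicate 1, 1.21 (adjusted p = 0.141) without P6_PRP_CD73+ replicate 1 and 1.35 (adjusted p = 0.0988) without P6_PRP_CD73+ replicate 2. Its value stayed at 1.28 without the filter (adjusted p = 0.117) and with a prior variance without trend (adjusted p = 0.0744). Ptf1a lost it under 9 of 19, 6 of them with 1 library left out, and its P6 values are 5 reads and 1 read.

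Bipolar cell genes moved most in this step, with 13 of 18 higher and 0 lower (median 2.37). Grm6, the glutamate receptor of ON bipolar cells, rose by 6.00 ± 0.53 and stood at 68.8 and 90.2 RPM at P6, against 0.236 and 0.265 RPM in P4_PRP_CD73+. Isl1, a factor shared by ganglion, starburst amacrine and ON bipolar cells, rose by 4.21 ± 0.33. It accounts for 1 of the 2 other amacrine genes that rose of 22, for the 1 horizontal cell gene that rose of 9, and for 1 of the 2 ganglion cell genes that rose of 18. Gjd2, the connexin of AII amacrine and other retinal neurons, was the other amacrine gene that rose, by 1.41 ± 0.33. Rbpms2 was the other ganglion cell gene that rose, by 1.39 ± 0.30. Foxn4, by -1.61 ± 0.35, was the 1 amacrine and the 1 horizontal cell gene that fell, and no ganglion cell gene fell. Of 10 GABA genes 2 rose, among them the GABA receptor subunit Gabrb2 (2.62 ± 0.58). Of the progenitor genes 3 of 15 fell and 1 rose, of the photoreceptor genes 4 of 20 rose and 1 fell, and of the lens and pigment epithelium genes Cryab rose. No Muller glia, endothelial, pericyte or microglial gene was called. The part of bipolar cells in the Prox1 rise was not tested.

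From P6 to P10, 5 of the 7 fell: Gad2, Tfap2b, Pax6, Onecut2 and Onecut1. Gad2 was lower at P10 by -2.48 ± 0.34 (adjusted p = 0.000104), Tfap2b by -2.46 ± 0.45 (adjusted p = 0.00117) and Pax6 by -2.04 ± 0.26 (adjusted p = 6.19e-05). Onecut2 was lower by -1.77 ± 0.29 (adjusted p = 0.000540) and Onecut1 by -1.62 ± 0.45 (adjusted p = 0.0191). Prox1 (0.12 ± 0.28, adjusted p = 0.808) and Ptf1a (0.14 ± 0.51, adjusted p = 0.880) were not called. Of all genes 11.0% were called, 3.33% higher and 7.62% lower, and the median was -1.77 over the 7 and -0.13 over all genes. Scaling by the median of ratios put the median of all genes at 0.00, and the share of higher genes among all calls was then 41.0%, or 46.4% after quantile normalization, against 30.4% as deposited. The falls of Gad2, Tfap2b, Pax6 and Onecut2 were called under each of 19 alternative settings, scalings included. That of Onecut1 was lost under 5, with -0.90 (adjusted p = 0.227) without P6_PRP_CD73+ replicate 2 and -1.45 (adjusted p = 0.126) without P10_PRP_CD73+ replicate 2.

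Other genes of the same cells fell in this step as well, none rose, and genes of other cell types fell beside them. Of 22 other amacrine genes 11 fell (median -1.30), led by Ebf3 at -3.34 ± 0.35, Nhlh2 at -3.20 ± 0.41 and Prdm13 at -2.81 ± 0.40. Ebf3, a factor of amacrine subtypes, stood at 0.779 and 1.12 RPM at P10, against 16.8 and 20.6 RPM at P6. Prdm13, which acts downstream of Ptf1a in amacrine fate, stood at 5.45 and 3.36 RPM at P10, against 26.7 and 48.8 RPM at P6. Of the other GABA genes 3 of 10 fell, among them Slc32a1 (-1.97 ± 0.60). Of the horizontal cell genes 3 of 9 fell, and of the ganglion cell genes 6 of 18, led by Sox11 (-2.68 ± 0.31) and Sox4 (-2.05 ± 0.15), which act in many young neurons.

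Progenitor genes counted 12 of 15 lower (median -2.01) and Muller glia genes 8 of 13 lower (median -1.33), with Ccnd1 at -3.31 ± 0.29, Hes5 at -3.12 ± 0.23 and Sox9 at -2.49 ± 0.31. These lists share genes, and Sox2 (-2.06 ± 0.29) counts in the progenitor, Muller glia and amacrine lists alike. The summed progenitor level was 850 and 627 RPM at P10, against 1406 and 1464 RPM at P6, and that of Muller glia 575 and 677 RPM at P10, against 1627 and 1505 RPM at P6. Photoreceptor genes counted 8 of 20 higher and 1 lower, and their summed level was 44814 and 51350 RPM at P10, against 21234 and 19036 RPM at P6. Bipolar cell genes counted 5 of 18 higher and 2 lower. Endothelial, pericyte and microglial genes counted 1 of 6 lower. The part of these cell types in the falls of the 5 genes was not tested.

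**Figure D2:**
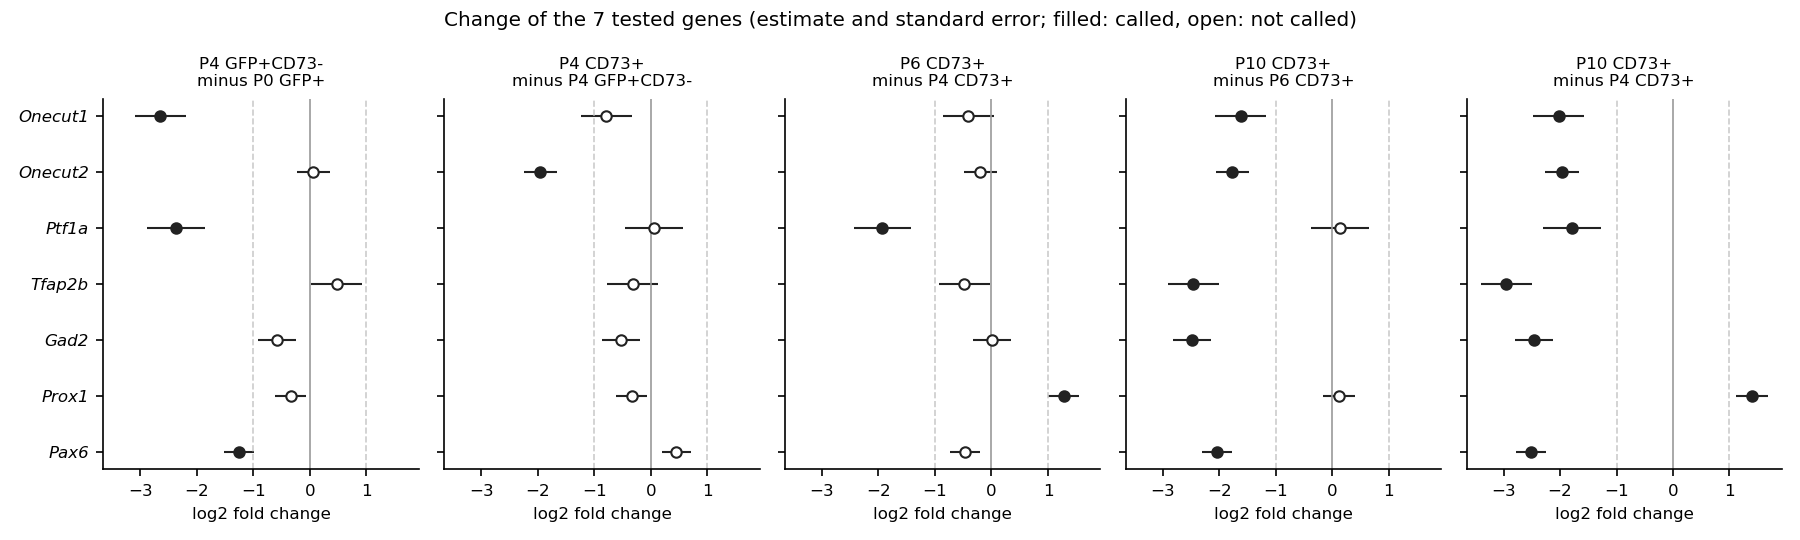
Log2 fold change (points) and standard error (lines) of the 7 tested genes in each retinal comparison, with dashed lines at 1 and -1 and filled points for called changes. Onecut1, Ptf1a and Pax6 are filled on the left side from P0 to P4, Onecut2 between the P4 sorts, and Gad2, Tfap2b, Pax6, Onecut2 and Onecut1 from P6 to P10, while Prox1 is the one gene filled on the right.

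Over the whole span of the CD73+ gate, from P4 to P10, 6 of the 7 fell and Prox1 rose. Tfap2b was lower at P10 by -2.95 ± 0.45 (adjusted p = 0.000129), Pax6 by -2.51 ± 0.26 (adjusted p = 3.09e-06) and Gad2 by -2.47 ± 0.34 (adjusted p = 4.40e-05). Onecut1 was lower by -2.03 ± 0.45 (adjusted p = 0.00297), Onecut2 by -1.96 ± 0.29 (adjusted p = 0.000108) and Ptf1a by -1.79 ± 0.51 (adjusted p = 0.0144), and Prox1 was higher by 1.40 ± 0.28 (adjusted p = 0.00119). Of all genes 17.2% were called, 10.8% lower and 6.33% higher, and the median was -2.03 over the 7 and -0.13 over all genes. This comparison shares its libraries with the P6 steps and is no separate evidence. Ptf1a lost its call under 5 of 19 settings, with -1.39 (adjusted p = 0.139) without P4_PRP_CD73+ replicate 2 and -1.49 (adjusted p = 0.108) without P10_PRP_CD73+ replicate 1. Prox1 missed the fold threshold without P4_PRP_CD73+ replicate 1, at 0.93 (adjusted p = 0.0216). Over the same span 12 of 22 other amacrine genes fell and 2 rose (Isl1 and Gjd2). Of 9 other horizontal cell genes 2 fell and 2 rose. Of 18 other ganglion cell genes 4 fell and 3 rose (Isl1, Rbpms2 at 1.72 ± 0.30 and Nefl). Of 10 other GABA genes 1 fell and 2 rose. Progenitor genes counted 13 of 15 lower and 1 higher, Muller glia genes 9 of 13 lower, bipolar cell genes 13 of 18 higher and 2 lower, and photoreceptor genes 11 of 20 higher and 3 lower. Endothelial, pericyte and microglial genes counted 2 of 6 higher and 1 lower, and 1 lens and pigment epithelium gene rose.

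**Figure D3:**
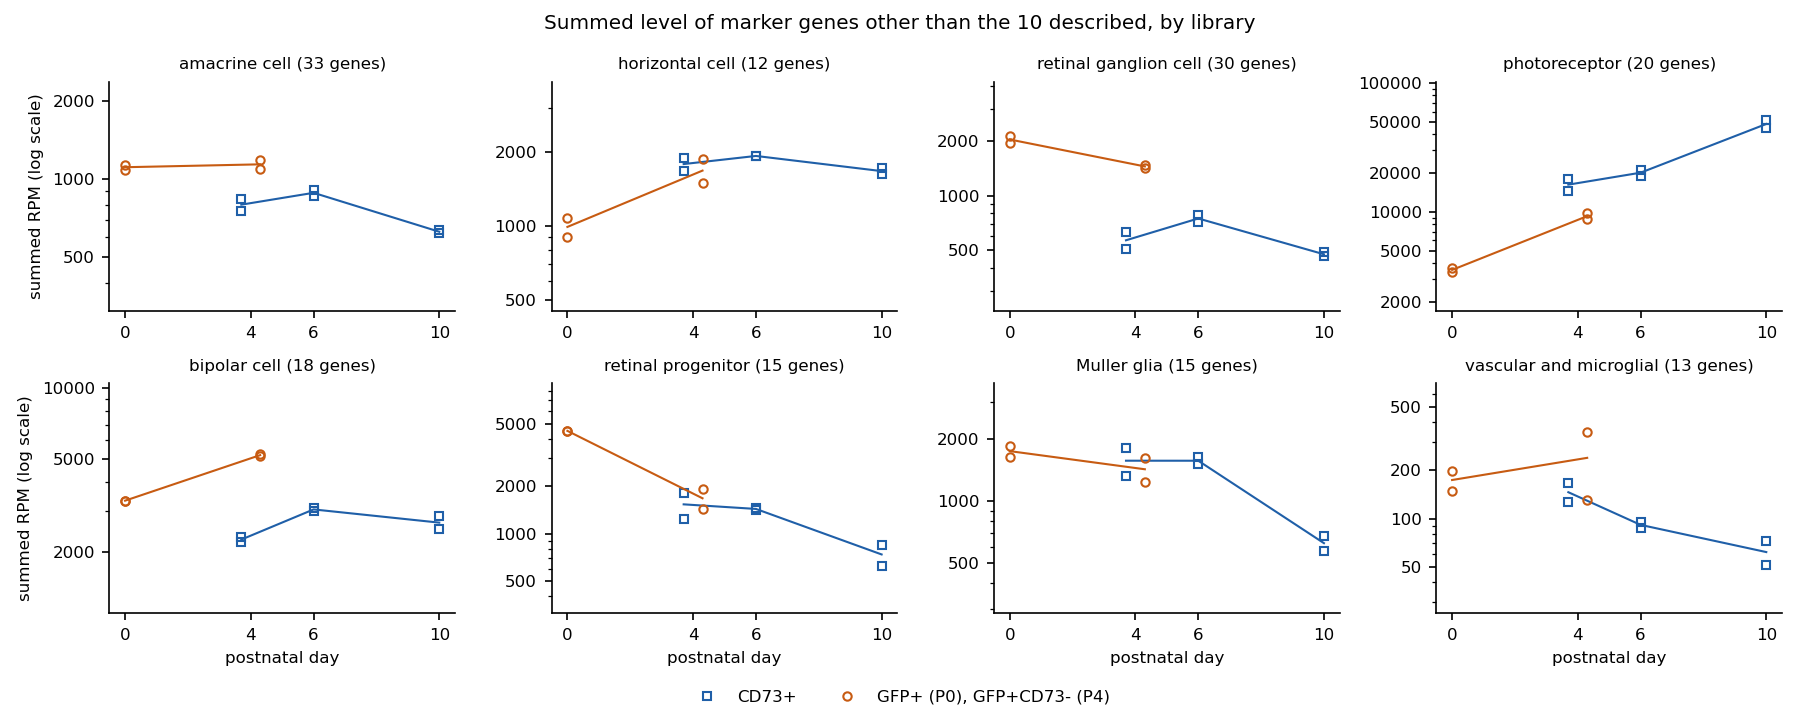
Summed RPM (log axes, each with its own range) of marker genes other than the 10 described, against postnatal day, 1 point per library, with lines through group means; squares are CD73+ sorts, circles the reporter-positive sorts of P0 and, without CD73, of P4. The photoreceptor sum climbs to 44814 and 51350 RPM at P10, and the progenitor sum is 4484 and 4496 RPM at P0 and 850 and 627 RPM at P10. The ganglion, bipolar and amacrine cell sums are higher in the P4 CD73- sort than in the P4 CD73+ sort without overlap, and the photoreceptor sum is lower. In the P4 CD73- sort the ganglion cell sum is 1475 and 1417 RPM, of which Sox4 alone holds 940 and 795 RPM. The amacrine cell sum there is 1094 and 1194 RPM, of which Meis2 holds 599 and 497 RPM. In the P4 CD73+ sort it is 755 and 844 RPM, of which Meis2 holds 281 and 231 RPM. Of the bipolar cell sum in the P4 CD73- sort, Otx2 holds 2468 and 2439 RPM and Neurod4 2071 and 2181 RPM.

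The genes whose levels followed each of the 7 most closely over the 10 retinal libraries were listed by Pearson's r of log2(RPM + 1), among the 11703 other genes tested. The points share libraries and ages, so these values describe a course and no more. Pax6 ran closest to Vim (r = 0.992), Hes5 (0.983) and Klf13 (0.982). Vim, an intermediate filament of progenitors and Muller glia, and Hes5, a Notch effector of progenitors, are both in the progenitor or glial lists. Ptf1a ran closest to Kif2c (0.987), Prep and Asf1b (0.983 each), of which Kif2c is a mitotic kinesin and Asf1b a histone chaperone of dividing cells. Gad2 ran closest to Coro1c (0.990), Elavl3 (0.987), a neuronal RNA-binding protein that is in the amacrine list, and Mdk (0.985). Onecut1 ran closest to Tdp2 (0.985), Uck2 (0.982) and Mpzl1 (0.980), and Onecut2 to Dclk2 (0.987), Smarca4 (0.986) and Cacna1h (0.983). The best values of Tfap2b (Epha5 at 0.962) and Prox1 (Rnf152 at 0.948) were lower. Among the 7 themselves, Gad2 and Pax6 were closest (r = 0.956), and Prox1 had negative values with each of the other 6, from -0.56 with Tfap2b to -0.42 with Onecut1.

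Outside the retina, Onecut2 and Pax6 passed the filter in intestinal epithelium, where 10481 genes were tested over 6 libraries of the same EGFP-BLIMP1 mice. The E16.5_emIE cells were sorted for the reporter and the epithelial marker EpCAM, and the P3_IE and P14_IE cells were EpCAM-positive and reporter-negative per the labels' protocols, so age and gate change together at P3. Pax6, which enteroendocrine cells use to make their hormones, stood at 9.98 and 8.75 RPM at P3, against 1.54 and 0.618 RPM at E16.5, and rose by 2.35 ± 0.44 (adjusted p = 0.000164). At P14 it stood at 7.02 and 11.6 RPM and was not called against P3 (-0.04 ± 0.44, adjusted p = 0.973). Onecut2, a factor known in the mouse intestinal epithelium, stood at 94.8 and 125 RPM at P3, against 72.3 and 73.8 RPM at E16.5, a change of 0.57 ± 0.19 (adjusted p = 0.0246) below the fold threshold. It fell at P14, to 37.8 and 31.6 RPM, by -1.62 ± 0.19 (adjusted p = 4.36e-06).

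In the intestine 1 of these 2 genes was called at P3, where 20.8% of all genes were called, 12.6% higher and 8.20% lower, and 1 of 2 at P14, where 4.40% were called, 1.99% higher and 2.40% lower. Of 17 other enteroendocrine genes tested, 17 rose at P3 (median 3.40, against 0.11 over all genes) and 7 fell at P14 (median -0.68). The hormone gene Sst stood at 1166 and 744 RPM at P3, against 2.31 and 7.10 RPM at E16.5. After quantile normalization 49.6% of all calls at P3 were higher, against 60.6% as deposited. At P14 the shares were 53.8% after quantile normalization and 54.7% with the median of ratios, against 45.3% as deposited. The part of enteroendocrine cells in the Pax6 rise was not tested. Onecut1, Ptf1a, Tfap2b, Gad1, Gad2 and Pou4f2 stayed at or below 0.448 RPM in every intestinal library.

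The remaining groups held d2 PGCLC, primordial germ cell-like cells of day 2 in culture made from a C57BL/6+129 line with Blimp1-mVenus, stella-ECFP and Rosa26-rtTA and sorted for mVenus, and the B lineage of EGFP-BLIMP1 mice. That lineage comprised splenic B cells sorted for B220 from adult mice, and 3 sorts from B cells kept for 3 days with LPS at 10 ng/mL and IL-4 at 2 ng/mL: Blast (GFP-, CD138-), prePB (GFP+, CD138-) and PB (GFP+, CD138+). There Onecut2 reached at most 1.11 RPM, and Onecut1 and Ptf1a were at 0 in each of these 10 libraries.

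**Figure D4:**
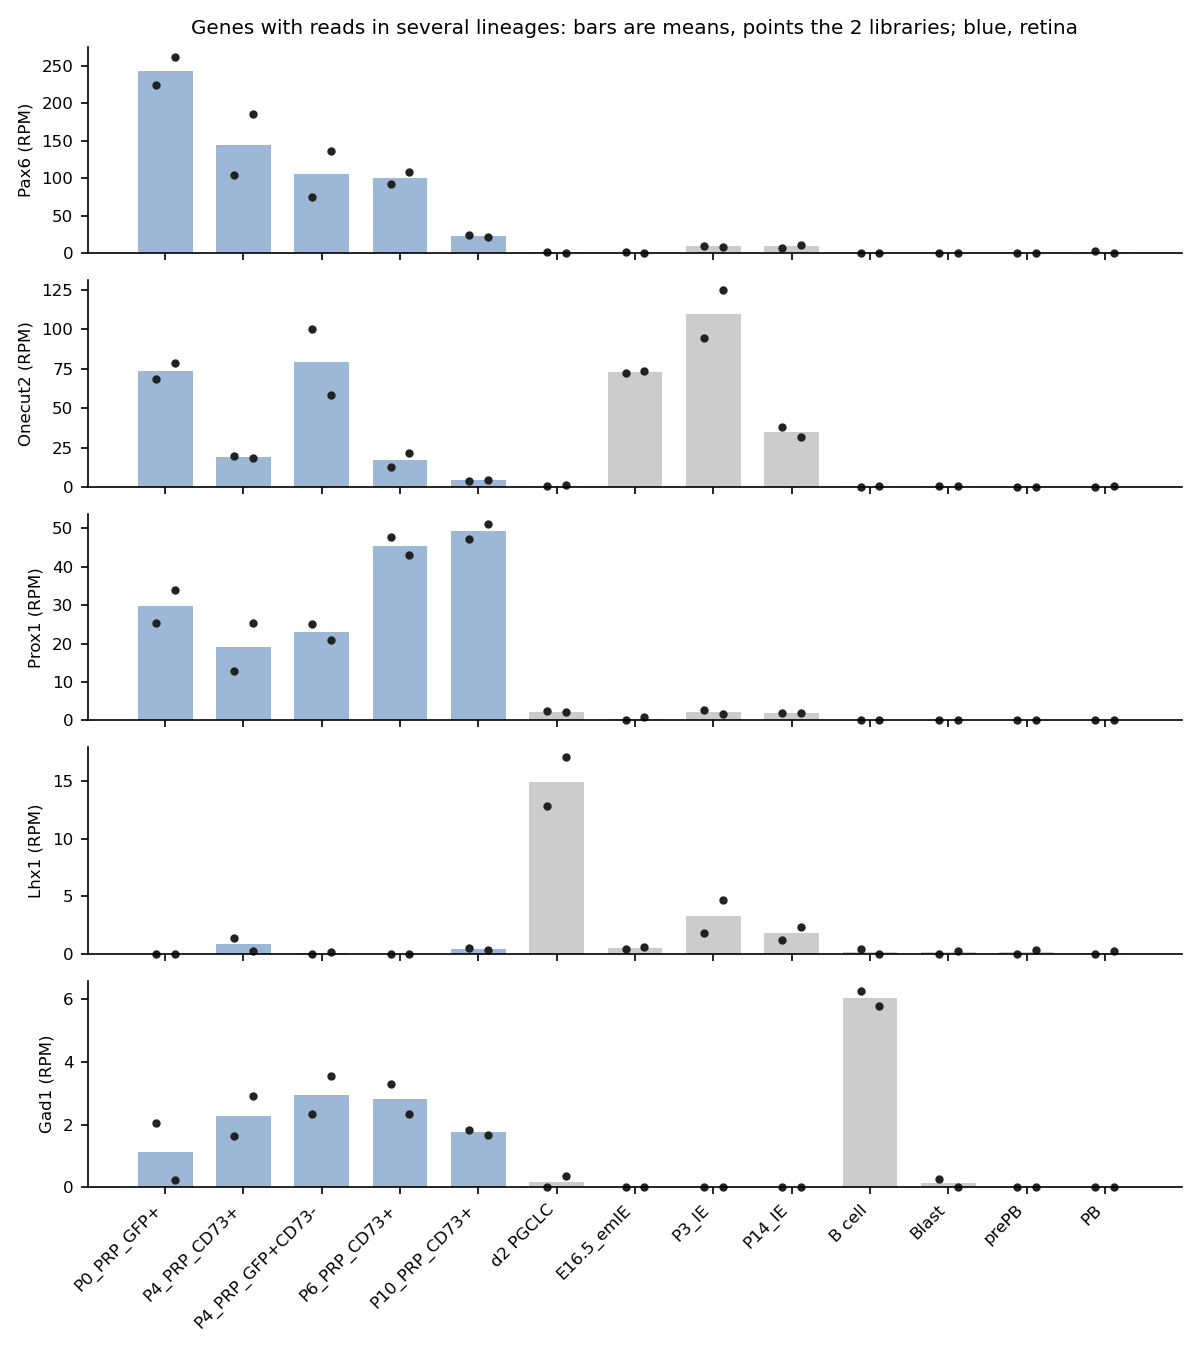
RPM (linear axes, each with its own range) of the 5 genes with more than 3 reads in both libraries of an intestinal, PGCLC or B-lineage group, in all 13 groups; bars are means, points the 2 libraries, blue bars the retina and grey bars the other lineages. Onecut2 stands at 31.6 to 125 RPM in intestinal epithelium and at 3.90 to 100.1 RPM in the retinal sorts, Pax6 and Prox1 are highest in the retina, Lhx1 in d2 PGCLC and Gad1 in B cells.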

How the data were processed

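Libraries were made by 3' RNA-seq from sorted cells, 2 per group. Per the file headers, the authors deposited an expression signal in RPM for each gene and library. The submitters' processing notes list Bowtie 1.0.1, Cufflinks 2.2.0, cutadapt 1.11, TopHat 1.4.1 and mm10, without roles, and the treatment of shared reads and of strand is not stated. Depth was read from the commonest positive value of each library, taken as the value of a read (2.58 to 5.60 M reads in the retina). Below 20.5 reads, 83.1 to 87.0% of retinal values were whole reads within 0.02 of a read, so the signal was not treated as counts. Of 26310 lines, 1164 were moved against the header (92 spike-in lines and 1072 gene lines) and were left out, none of them among the 10 genes.

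Values were taken as log2(RPM + 1). A gene was tested where 2 or more samples of a fit reached 5 RPM, with limma 3.58.1 (R 4.3.3, trended prior variance), in 1 fit of the 10 retinal libraries (5 comparisons) and 1 of the 6 intestinal libraries (2 comparisons). Two-sided p-values were adjusted over all genes tested (Benjamini-Hochberg). The procedure was tested on simulated data. Named genes were the 10 described, the genes of the reporter and the gate, and the 3 genes most alike each of the 7. Up to 3 called genes per marker list, comparison and direction with the largest change were named as well. Gja10, Opn4, Chat, Calb1, Thy1, Rbpms, Tyrobp and Slc32a1 at P6 were named after their values were seen. So were Otx2 and Meis2 between the P4 sorts. Some genes that this rule names are not reported here. A list's 10 described genes are left out of its counts. A gene on several lists counts in each of them. The genes and lists were chosen with earlier results of these data known. Promoter windows and positions came from RefSeq (GRCm38.p6). Python 3.11.15 was used for the rest, with pandas 2.3.3, NumPy 2.4.6 and matplotlib 3.10.9.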

Additional observations from a re-analysis of the deposited data

Results flagged for a closer look

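Some of the 10 genes had reads outside the retina, in groups that enter none of the comparisons above, with more than 3 reads in both libraries. Lhx1, a factor of early mouse embryo patterning as well as of horizontal cells, stood at 14.9 ± 3.00 RPM in d2 PGCLC (SD, n = 2), above every retinal library. Gad1 stood at 6.02 ± 0.344 RPM in splenic B cells, above its highest retinal value of 3.56 RPM, and at 0.254 and 0 RPM in the Blast libraries. Prox1 stood at 2.28 ± 0.0750 RPM in d2 PGCLC and Pax6 at 1.89 ± 1.34 RPM in PB. None of these levels was tested, and no group of the study serves as a control for them.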

How the results depend on the processing

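Of 3982 values under alternative settings, 0 changed sign with a call in either fit, 224 lost their call and 25 counts moved by more than 1.5 times. Changes of sign between uncalled values were not counted. Of 20 calls on the 10 genes, 12 held under every setting in which the gene was tested. Of the 10 genes, those called from P4 to P6 in the CD73+ gate (2 as reported) were 1 with a pseudocount of 5, 0 without the filter and 0 with a prior variance without trend, and all genes called there were 111 without the filter, against 316. From P6 to P10 all genes called were 817 with a pseudocount of 5, against 1282. In the intestine at P3, 0 of the 10 were called with a filter of 10 RPM, where Pax6 was not tested. In a fit of all 26 samples 3 were called, against 1, where genes that reach the filter only through other lineages were tested as well. At P14 all genes called were 143 without the filter and 249 without trend, against 461. The causes of the other changes in these counts were not tested. Without P4_PRP_GFP+CD73- replicate 1, 809 genes were called from P0 to P4, and Pax6 was also lost there without the filter (adjusted p = 0.0521).

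With 1 library left out at a time, the lone sample of a group was assumed to vary like the other groups. The 10 genes then gave 1 to 3 calls from P0 to P4 CD73-, 1 to 1 between the P4 sorts, 0 to 2 from P4 to P6, 4 to 5 from P6 to P10, 6 to 7 from P4 to P10, and 1 to 1 in both intestinal steps. All genes gave 809 to 1289, 443 to 713, 115 to 362, 776 to 1296, 1521 to 2008, 1872 to 2150 and 269 to 461 calls in the same order. Scaling changed the share of higher genes among calls from P4 to P10 to 48.3% after quantile normalization, against 36.9% as deposited. Equal replicate numbers are not stated to mark a shared animal: differences between replicates correlated at -0.03 to 0.05 between retinal groups other than the P4 sorts, which had 0.284. A fit with the replicate number as a block gave 3, 1, 2, 5, 7, 1 and 1 calls among the 10 genes and 1314, 704, 335, 1292, 2043, 2171 and 473 among all, and changed no call on the 10. Its block term is common to all groups of a fit, so it cannot settle whether the P4 sorts alone were paired. Values near 1 RPM rest on a few reads, so Lhx1, Gad1 and Pou4f2 in the retina, Onecut1 at P10 and Ptf1a from P6 on are limited by depth.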
